A study of Mus musculus with 10 samples.

Results

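The expression of 8 genes of the oligodendrocyte precursor cell (OPC) was examined in brain endothelial cells (BECs) of APP/PS1 mice and controls. The genes were Sox10, Olig1, Olig2, Pdgfra, Cspg5, Ptprz1, Gpr17 and Ptn, taken by their GENCODE symbols, and all 8 were found among the 14106 genes of the normalised table. RNA from CD31+CD45− cells of the dissociated, perfused cortex without meninges was sequenced in 10 libraries, 5 from APP/PS1 females and 5 from control females, all 1 year old and on the same C3H/BL6 background. APP/PS1 mice carry a chimeric mouse and human amyloid precursor protein with the Swedish mutation and a mutant human presenilin 1 that lacks exon 9, and they deposit Aβ in the brain. The transgenes are not limited to endothelial cells, and whether a library came from a single mouse or from a pool is not given in the sources used here, so that each SD is a spread between libraries, which may be technical in part. Myelin was removed from the cell suspension before the CD31 selection. Each APP/PS1 library was compared with the control library of the same replicate number, which gave 5 pairs.

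OPCs are the glial cells from which myelinating oligodendrocytes arise, and they persist in the adult cortex. SOX10 is a transcription factor of the whole oligodendrocyte lineage, and OLIG1 and OLIG2 are basic helix-loop-helix (bHLH) transcription factors that act with it in lineage commitment and differentiation. PDGFRA receives the platelet-derived growth factor signal on which OPC proliferation depends, and it is also made by perivascular fibroblasts. PTPRZ1 and CSPG5 are chondroitin sulfate proteoglycans of the cell surface, of which PTPRZ1 is a receptor tyrosine phosphatase. Pleiotrophin, the product of Ptn, is a secreted heparin-binding growth factor and a ligand of PTPRZ1. GPR17 is a G protein-coupled receptor of precursors that have begun to differentiate.

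The 8 genes were chosen by their measured log2 CPM differences between APP/PS1 and control libraries, together with what is known of them in the lineage. Their differences are therefore given as a description. The 8 genes were part of the fit across all genes, but no p value of theirs is given and no call of them is used as support. Values are log2 CPM, the binary logarithm of the counts of a gene scaled to library size, after the authors' batch correction and with a prior count of 3 added, which understates the fold changes of weakly expressed genes. The whole numbers behind these values, called adjusted counts here, summed to between 22993426 and 126686149 in the control libraries and between 22371766 and 114525432 in the APP/PS1 libraries, with replicate 1 the lowest in both groups. They are not reads, and no counting error was taken from them. The mean of a pair varied over the 5 pairs with an SD of 0.00353 log2 units in the median gene, and the APP/PS1 deviation from it with an SD of 0.0863. The libraries of a pair were thus mirror images, and of the 705 genes lower in all 5 pairs 99.3% also had groups that did not overlap. An absence of overlap adds almost nothing to the count of pairs.

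Promoter sequence was taken from RefSeq (GRCm38.p6) for 4 of the 8 genes, namely Olig2, Pdgfra, Ptprz1 and Ptn. The sequences upstream of the annotated start are shown for Olig2 and Ptprz1, a transcription factor and a surface receptor, since among the 4 genes their mean differences lay furthest below 0. They lie at chr16:91225300-91225456 and chr6:22875252-22875501 of GRCm38, both on the plus strand.
Olig2: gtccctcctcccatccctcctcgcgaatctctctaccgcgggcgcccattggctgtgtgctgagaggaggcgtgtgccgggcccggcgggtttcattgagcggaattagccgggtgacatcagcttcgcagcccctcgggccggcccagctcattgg
Ptprz1: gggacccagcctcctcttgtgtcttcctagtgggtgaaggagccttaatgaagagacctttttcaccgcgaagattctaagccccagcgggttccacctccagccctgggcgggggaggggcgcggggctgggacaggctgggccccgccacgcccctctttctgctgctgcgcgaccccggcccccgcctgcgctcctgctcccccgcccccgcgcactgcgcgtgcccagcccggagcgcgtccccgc
These windows, and those of Pdgfra and Ptn, were searched on both strands for the SOX motif ACAAAG, its variant ACAATG and the E-boxes CAGCTG and CATATG, which bHLH factors bind. None of the 4 motifs was found in any of the 4 windows, of which Olig2 had 157 bases, Ptn 209 and the other two 250, and no base is therefore set in capitals. Among 32851 promoter windows of 250 bases, ACAAAG was present in 16.5%, ACAATG in 10.7%, CAGCTG in 13% and CATATG in 3.46%. The absence of these letters from short windows says nothing of the factors that bind there.

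Of the 8 genes, 7 had a negative mean difference between APP/PS1 and control BECs, against 51.8% of the 14106 genes. Sox10, Olig1, Olig2 and Cspg5 were lower in all 5 pairs, against 5% of all genes and 7.1% of those below the median level, and the groups of the same 4 genes did not overlap, against 4.96% of all genes. None of the 8 genes was higher in all 5 pairs, against 2.99%. The comparison of these shares was fixed by the choice of the genes, and nothing is read from it. Across all genes, limma with the 5 pairs in the model called 0 of 14106 genes at an adjusted p under 0.05, while 833 lower and 300 higher genes had an unadjusted p under 0.05. Without the pairs in the model it called 455 lower genes, or 3.23%, and 193 higher genes, or 1.37%. Weighted by limma-voom on the adjusted counts, 0 genes were called and 1025 had an unadjusted p under 0.05.

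The 3 transcription factor genes had the lowest log2 CPM of the 8 genes, before scaling by length. Sox10 (ENSMUSG00000033006) lies on the minus strand at chr15:79154908-79165240 of GRCm38. Its level in control replicates 1 to 5 was −0.38, −0.53, −0.63, −0.66 and −0.55 log2 CPM, and in the APP/PS1 replicates −1.71, −1.68, −1.51, −1.62 and −1.85. Every APP/PS1 library lay below every control library, with a gap wider than the range within either group. Controls had a mean of −0.55 ± 0.11 and APP/PS1 libraries one of −1.67 ± 0.12 (SD, n = 5 each), a mean difference of −1.12 ± 0.0891 log2 units (SE of 5 pairs), or 54.0% lower on the deposited scale. The differences within pairs were close to each other and lay between −1.33 in pair 1 and −0.88 in pair 3. Behind these values stood between 17 and 81 adjusted counts in control libraries and between 6 and 32 in APP/PS1 libraries.

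Among the 200 genes with a mean difference below −1, which were 1.42% of all genes, Sox10 had the smallest SD over the pairs, at 0.199 compared with a median of 1.45. Of these 200 genes, 196 were below the median level of all genes, 4.30 log2 CPM. Sox10 was the only gene of the 8 in this group, and its place there was chosen after its values were seen. With a prior count well under 1 in place of 3, the mean difference of Sox10 was −1.21, and with each replicate left out in turn it lay between −1.18 and −1.07.

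Olig1 (ENSMUSG00000046160) and Olig2 (ENSMUSG00000039830) are neighbours on the plus strand of chromosome 16, with 41094 bases between the end of Olig2 and the start of Olig1. Olig1, a gene with a single exon at chr16:91269772-91271933, was at 0.98, 0.43, 0.48, 0.76 and 0.64 log2 CPM in control replicates 1 to 5 and at −0.79, 0.01, −0.04, −0.47 and −0.27 in APP/PS1 replicates. All APP/PS1 libraries were below all control libraries, but the gap between the groups varied by pair. The means were 0.66 ± 0.22 and −0.31 ± 0.33 (SD, n = 5 each), a difference of −0.97 ± 0.246 (SE). It was largest in pair 1, at −1.77, and smallest in pair 2, at −0.42. Olig1 shares 157 of its 2162 exonic bases with the antisense lincRNA Gm15966, and whether counting used strand is not given in the sources used here.

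Olig2, at chr16:91225457-91228677, was at −0.56, −1.16, −1.21, −0.81 and −1.24 log2 CPM in control replicates and at −2.22, −1.43, −1.40, −2.15 and −1.47 in APP/PS1 replicates. The groups did not overlap, although replicates 2, 3 and 5 differed by little. The means were −1.0 ± 0.30 and −1.73 ± 0.41 (SD, n = 5 each), and the mean difference was −0.74 ± 0.315 (SE). Pairs 1 and 4 contributed differences of −1.66 and −1.34, whereas pairs 2, 3 and 5 were between −0.27 and −0.19. Olig2 rested on 4 to 59 adjusted counts per library, the fewest of the 8 genes. Olig1 and Olig2 both had their largest differences in pairs 1 and 4, at −1.77 and −1.23 for Olig1. In pairs 3 and 5 Olig1 differed by −0.53 and −0.91 and Olig2 by −0.19 and −0.23, on few adjusted counts, and the difference between the 2 genes was not tested.

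**Figure D1:**
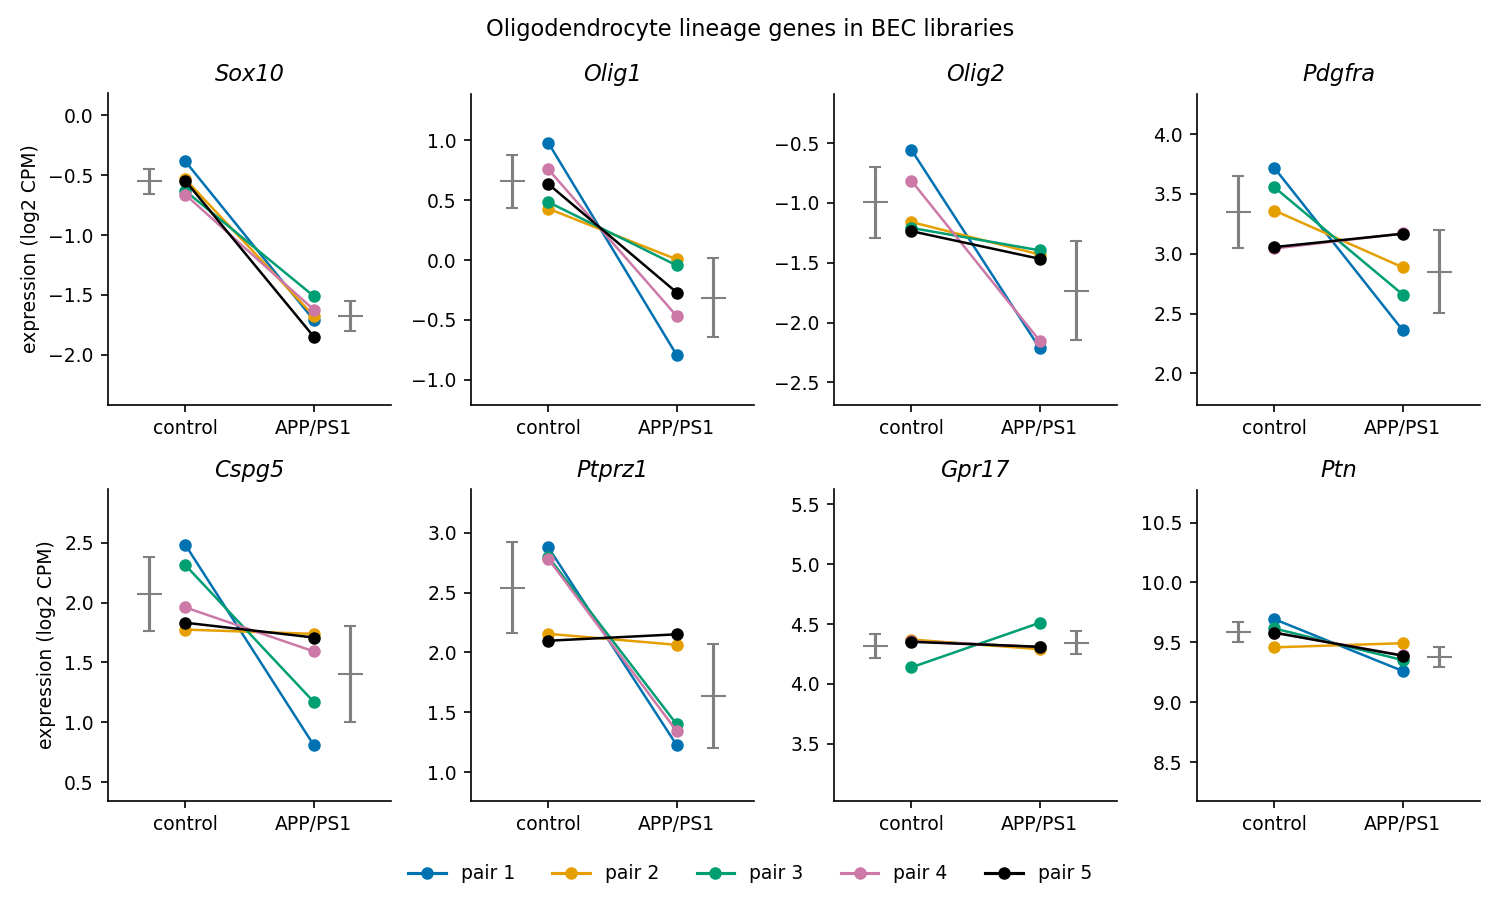
Expression (log2 CPM) of the 8 genes in each control and APP/PS1 library, with a line joining the libraries of a pair and grey bars for the mean ± SD of 5 libraries. The vertical axis differs between panels. The lines of Sox10 run almost parallel from about −0.55 to −1.67, while those of Olig2, Cspg5 and Ptprz1 split into steep and flat ones and those of Gpr17 and Ptn are nearly level.

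Pdgfra, Ptprz1 and Cspg5, genes of surface receptors and proteoglycans, had higher log2 CPM than the transcription factor genes, with SDs over the pairs from 0.643 to 0.817. Pdgfra (ENSMUSG00000029231), at chr5:75152292-75198215 on the plus strand, was at 3.72, 3.36, 3.56, 3.04 and 3.06 log2 CPM in control replicates 1 to 5 and at 2.36, 2.89, 2.66, 3.17 and 3.17 in APP/PS1 replicates. The groups overlapped, because replicates 4 and 5 were slightly higher in APP/PS1 mice. The means were 3.35 ± 0.30 and 2.85 ± 0.35 (SD, n = 5 each), with a mean difference of −0.50 ± 0.288 (SE). It was lower in 3 of 5 pairs. Without replicate 1 the mean difference of Pdgfra was −0.28, and by limma-voom it was −0.31. Its exons share 456 bases with Gm42802, 166 with Gm42803 and 30 with Mir7025, none of which was analysed here.

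Ptprz1 (ENSMUSG00000068748), at chr6:22875502-23052916 on the plus strand, was at 2.88, 2.16, 2.80, 2.78 and 2.10 log2 CPM in control and at 1.22, 2.06, 1.40, 1.34 and 2.15 in APP/PS1 replicates. Replicates 1, 3 and 4 differed by more than 1 log2 unit and replicates 2 and 5 by less than 0.1, and the groups overlapped. The means were 2.54 ± 0.38 and 1.64 ± 0.44 (SD, n = 5 each), and the mean difference was −0.91 ± 0.365 (SE). Its differences had the largest SD of the 8 genes, 0.817.

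Cspg5 (ENSMUSG00000032482), at chr9:110243783-110262576 on the plus strand, was at 2.48, 1.77, 2.31, 1.96 and 1.83 log2 CPM in control and at 0.81, 1.74, 1.17, 1.59 and 1.71 in APP/PS1 replicates. The groups did not overlap, yet the lowest control and the highest APP/PS1 library, both of replicate 2, were 0.04 log2 units apart. The means were 2.07 ± 0.31 and 1.40 ± 0.40 (SD, n = 5 each), with a mean difference of −0.67 ± 0.318 (SE). Pairs 1 and 3 gave −1.67 and −1.14, and the others lay between −0.37 and −0.04. The mean difference of Cspg5 was −0.42 without replicate 1 and −0.44 by limma-voom.

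Gpr17 (ENSMUSG00000052229), on chromosome 18, differed little between the groups. It was at 4.36, 4.37, 4.14, 4.36 and 4.35 log2 CPM in control and at 4.30, 4.29, 4.51, 4.31 and 4.31 in APP/PS1 replicates. Replicate 3 stood apart in both groups, in opposite directions. The means were 4.32 ± 0.10 and 4.35 ± 0.09 (SD, n = 5 each), and the mean difference of 0.03 ± 0.0860 (SE) was within its error. Its sign turned to −0.06 without replicate 3 and to −0.01 with scaling by library size alone. Gpr17 shares 188 of its 5195 exonic bases, 3.62%, with Lims2 on the opposite strand. Lims2, a focal adhesion adaptor gene, was at 8.15 log2 CPM with a difference of −0.02. It was added after its values were seen, and the part of its reads in the Gpr17 values was not tested.

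Ptn (ENSMUSG00000029838), the ligand gene, lies on the minus strand at chr6:36714929-36810220. It was at 9.69, 9.46, 9.62, 9.58 and 9.58 log2 CPM in control and at 9.26, 9.49, 9.35, 9.39 and 9.39 in APP/PS1 replicates. The APP/PS1 library was lower in 4 of 5 pairs, the exception being pair 2, and the groups overlapped there only. The means were 9.59 ± 0.08 and 9.38 ± 0.08 (SD, n = 5 each), a mean difference of −0.21 ± 0.0752 (SE), or 13.5% lower. Every Ptn value rested on at least 13583 adjusted counts, so that the prior count had next to no weight in it.

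**Figure D2:**
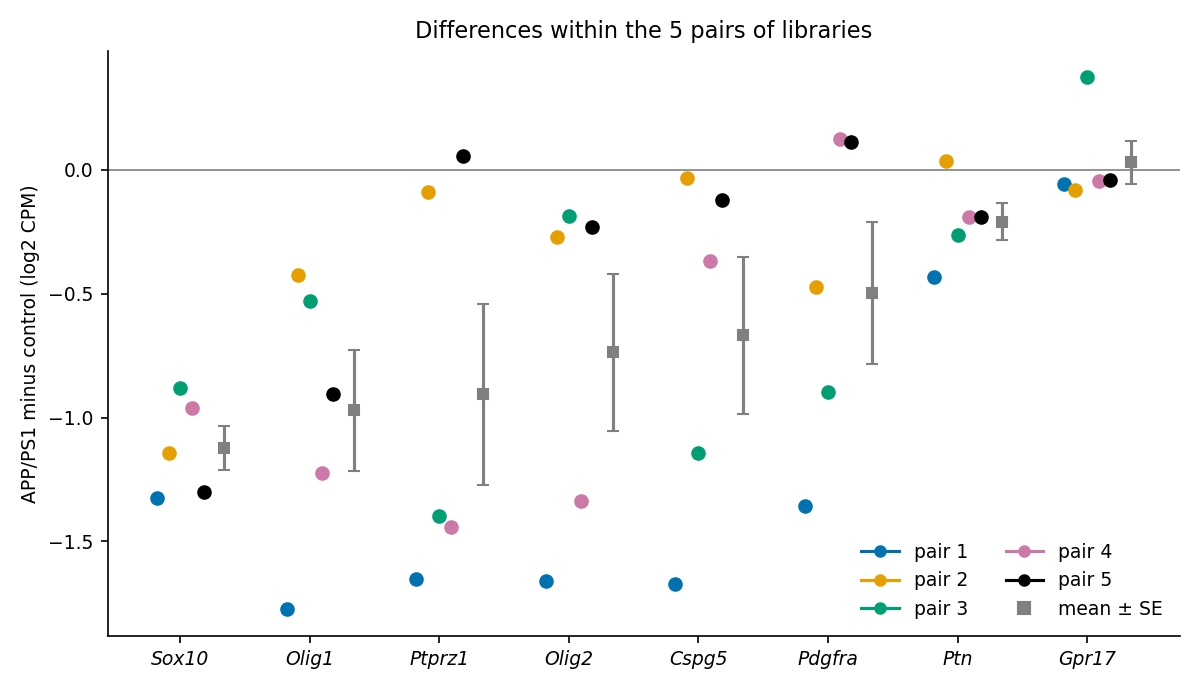
Difference between the APP/PS1 and the control library of each pair (log2 CPM, vertical axis) for each of the 8 genes, ordered by their mean, with grey squares for the mean ± SE of 5 pairs. The 5 points of Sox10 lie between −1.33 and −0.88, while Ptprz1, Olig2, Cspg5 and Pdgfra each have points near 0 as well as points below −1.

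The pairs did not contribute alike. In pair 1 all 8 genes were lower, against 7172 of the 14106 genes, and 7 of the 8 had their lowest difference there, the exception being Gpr17. The median difference of the 8 genes was −1.50 in pair 1, −0.70 in pair 3, −0.66 in pair 4, −0.18 in pair 2 and −0.16 in pair 5. Without replicate 1, their median over the pairs moved from −0.70 to −0.46. Replicate 1 had the fewest adjusted counts in both groups, and the part of depth in its values was not tested. In pairs 2 and 5, in which the median of the 8 genes was nearest to 0, Sox10 differed by −1.14 and −1.30.

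Compared per length of exon, the 8 genes spanned more than 3 orders of magnitude. Ptn was highest, at 209.0 ± 19.7 CPM per kb of exon, from the adjusted counts (SD over all 10 libraries), followed by Gpr17 at 3.87 ± 0.25 and Pdgfra at 0.880 ± 0.240. Olig1 followed at 0.542 ± 0.211, Cspg5 at 0.344 ± 0.113 and Ptprz1 at 0.321 ± 0.132. Sox10, at 0.152 ± 0.065, and Olig2, at 0.149 ± 0.055, were lowest. Ptn, Gpr17, Pdgfra, Olig1, Cspg5 and Ptprz1 were each above the next gene in at least 9 of 10 libraries, but Sox10 was above Olig2 in 5 of 10 and the 2 genes could not be ordered. Cspg5 and Ptprz1 differed by less than the SD of either. The 20 endothelial markers ranged from 88.1 for Emcn to 1981 for Slc2a1 on the same scale, with a median of 284. Of the 8 genes, Ptn alone lay within that range. By log2 CPM, Ptn was above 98.8% of all genes, Gpr17 above 50.6% and Sox10 above 2.52%, and 6 of the 8 genes were below the median level.

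**Figure D3:**
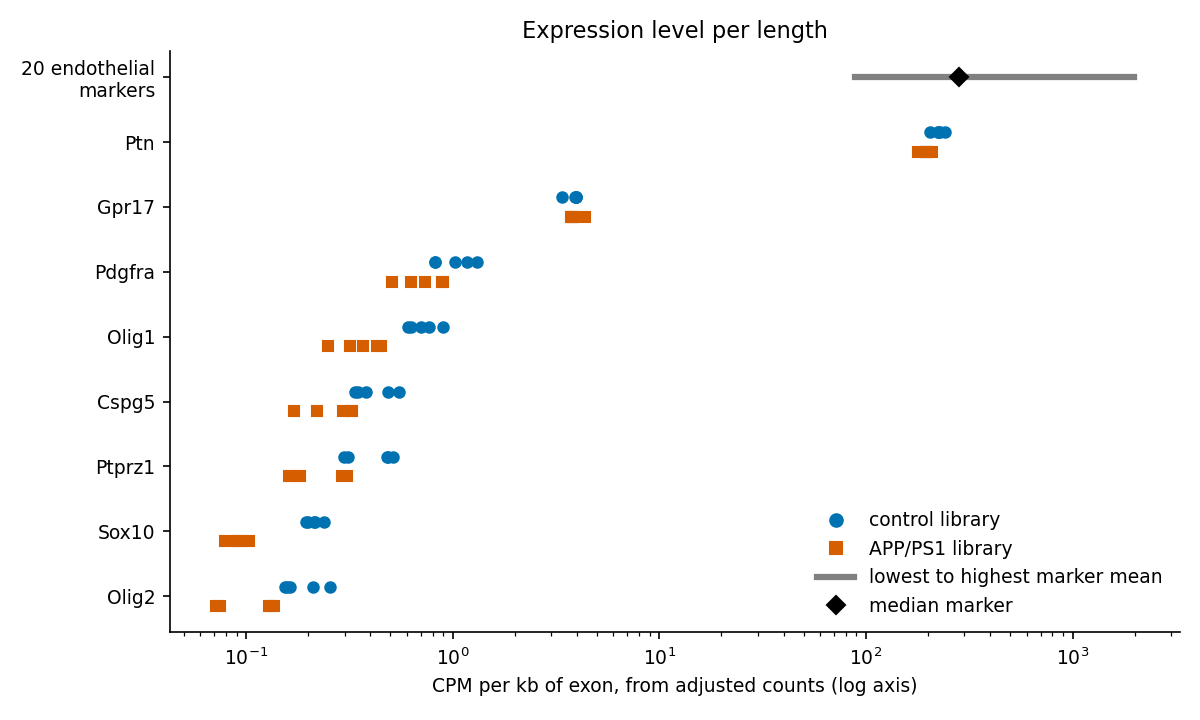
CPM per kb of exon, from the adjusted counts (horizontal log axis), of the 8 genes in each control (circles) and APP/PS1 (squares) library, with the range and median of the mean levels of 20 endothelial markers above them. Ptn lies among the endothelial markers, at 179 to 241, and Sox10 and Olig2 lie at 0.255 or less in every library.

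**Figure D4:**
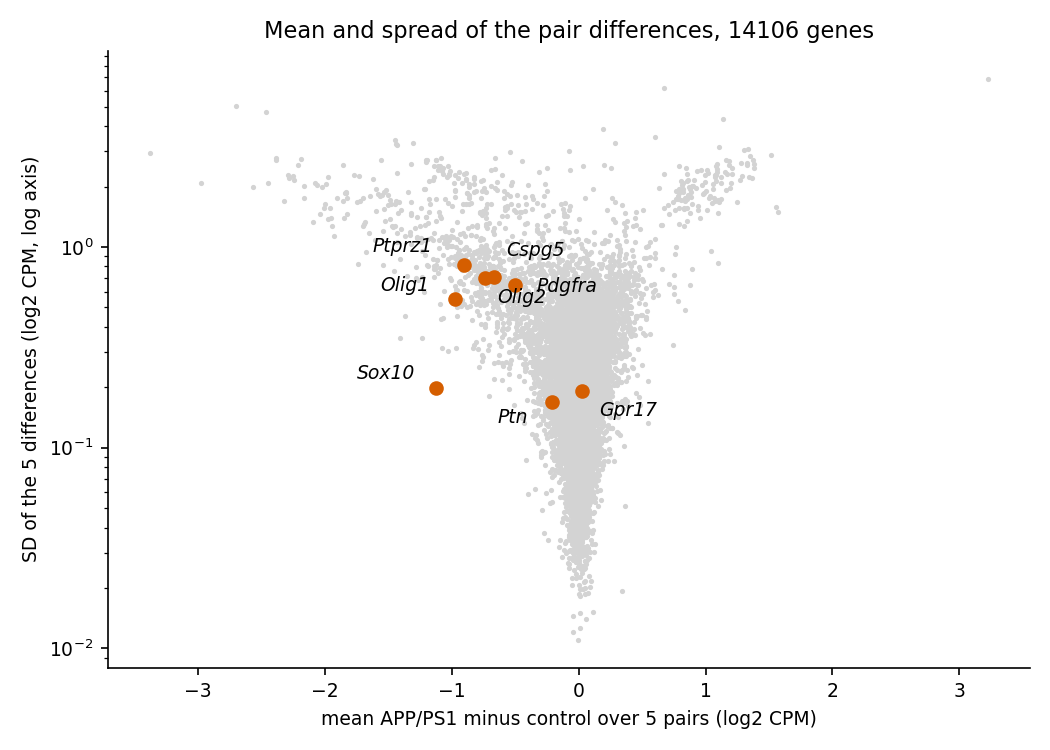
Mean of the 5 pair differences (horizontal axis) and their SD (vertical log axis), both in log2 CPM, for 14106 genes in grey with the 8 genes in orange. Sox10 lies at −1.12 with an SD of 0.199, at the lower edge of the genes this far below 0, and Olig1, Olig2, Cspg5, Ptprz1 and Pdgfra have SDs from 0.549 to 0.817.

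The labelled cell type was checked on defining markers. All 10 endothelial markers were measured, with a summed level of 19142 to 19858 CPM in control and 19878 to 20709 in APP/PS1 libraries. Pecam1, the gene of CD31, was at 10.76 ± 0.08 and 10.84 ± 0.08 log2 CPM, and Cdh5, that of VE-cadherin, at 10.15 ± 0.11 and 10.26 ± 0.11 (SD, n = 5 each). Ptprc, the gene of CD45, was at 0.72 ± 0.64 and 0.14 ± 0.96. Of 16 OPC markers, which include 7 of the 8 genes, 13 were measured, and their sum was 79.2 to 110 CPM in control and 69.2 to 86.3 in APP/PS1 libraries. Lhfpl3, Nkx2-2 and C1ql1 were not analysed here, and Neu4 was at 0 in both libraries of replicate 5. Of 10 mature oligodendrocyte markers, 8 were measured, 2 of them at 0 in at least 1 library. Their sum was higher, at 801 to 1185 CPM in control and 677 to 926 in APP/PS1 libraries. In the control library of replicate 2, Mbp was at 0.37, Mobp at −1.69 and Ermn at −2.18 log2 CPM, yet the sum was no lower than 801. Other markers of the 8 carried it there, so the sum does not stand for each of these markers. In such bulk libraries, fewer cells of a type and less RNA per cell cannot be told apart. Nor can either be told from lower expression in the endothelial cells, which the study proposes for Olig1 and Ptn. None of these was tested.

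Other genes of OPCs and committed precursors were lower less evenly. Of 24 such genes, 17 were measured, and 13 of the 17 had a negative mean difference, against 51.8% of all genes. Their median was −0.42, compared with −0.0038 over all genes. Xylt1, a xylosyltransferase gene of proteoglycan synthesis, was the 1 gene lower in all 5 pairs, at −0.38, against 5% of all genes. Xylt1 is named here after its values were seen. None was called by limma, and 4 were lower and 0 higher at an unadjusted p under 0.05, against 5.91% and 2.13% of all genes. All gene lists were chosen with earlier results of these data known. Their counts and the shares beside them are therefore a description, and no enrichment is read from them. The lowest mean differences were −2.18 for Bcas1, a gene of differentiating oligodendrocytes, and −1.33 for Luzp2. Bcas1 was higher in APP/PS1 mice in pair 2, by 2.46 log2 units, and its differences in the other pairs lay between −4.05 and −1.84. The highest was 0.25 for Pcdh15, which was lower in 4 of 5 pairs but at 0 adjusted counts in the control library of replicate 5, and without that replicate it was −0.85. Cspg4, the NG2 proteoglycan gene of OPCs and also of mural cells, was at −0.81 and lower in 4 of 5 pairs, and is likewise named after its values were seen. By pair, the list medians were −1.03, −0.26, −0.65, −0.05 and 0.03, so that pairs 1 and 3 were lowest as they were for the 8 genes. The list median was −0.26 without replicate 3, −0.66 without replicate 5 and −0.23 among genes averaging 1 log2 CPM or more.

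Genes of myelin and mature oligodendrocytes, the later stage of the lineage, showed a different order of pairs. Of 24 such genes, 15 were measured and 12 were lower on average, against 51.8% of all genes, with a median of −0.76. In all 5 pairs 4 were lower, against 5% of all genes. None was called by limma, and 8 were lower and 0 higher at an unadjusted p under 0.05, against 5.91% and 2.13%. As for the OPC genes, no enrichment is read from these counts. The list medians by pair were −1.21, 0.07, −0.53, −0.87 and −1.0. Restricted to genes averaging 1 log2 CPM or more the median was −0.28, and restricted to genes with 10 or more adjusted counts throughout, a filter that removes genes that were low in only 1 group, it was −0.43. Ermn, the gene of the cytoskeletal protein ermin, had the lowest mean difference, −3.38, with 0 adjusted counts in the APP/PS1 libraries of replicates 1 and 4. In pair 2 Ermn was higher in the APP/PS1 library, by 1.64 log2 units, and its SD over the pairs was 2.93. With a prior count well under 1 its mean difference was −5.64. Mobp followed at −2.70, and Tspan2 was highest at 0.20. Mbp, the gene of myelin basic protein, differed by −5.65 in pair 1 and by 5.79 in pair 2. In contrast, Myrf, the gene of the transcription factor that acts downstream of SOX10 in myelination, was lower in all 5 pairs with differences between −1.0 and −0.34, and a mean of −0.76 ± 0.120 (SE, adjusted p = 0.303 from limma). Gjc3, a gap junction gene of oligodendrocytes, was lower in all 5 pairs as well, with a mean of −1.74 ± 0.370 (SE, adjusted p = 0.368 from limma). Mbp, Myrf and Gjc3 were picked after their values were seen. In pair 2, in which Mbp, Mobp, Ermn and Bcas1 were higher in the APP/PS1 library, Sox10, Myrf and Gjc3 were lower, at −1.14, −0.78 and −0.52. Only 5 of the 15 measured myelin genes were lower in that pair.

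The partners of the 8 genes in signalling were described in the same way. Of 15 genes for midkine and for receptors and binding partners of pleiotrophin other than PTPRZ1, 11 were measured. On average 6 of the 11 were lower, against 51.8% of all genes, and their median difference was −0.02. Sdc2, a heparan sulfate proteoglycan gene, was lowest at −0.74, Lrp1, an endocytic receptor gene, followed at −0.55, and the integrin gene Itga6 was highest at 0.18. None of the 11 was lower in all 5 pairs, against 5% of all genes. At an unadjusted p under 0.05, 2 were lower, against 5.91%. The sign of the median turned to 0.01 without replicate 2 and to 0.03 without replicate 5. The other 6 genes of PDGF ligands and receptors were all measured, and 3 were lower on average, against 51.8% of all genes. Pdgfrb, the receptor gene of mural cells, was at −0.75 and Pdgfrl at −0.53, whereas Pdgfb, the endothelial ligand gene that recruits mural cells, was at 0.16. Pdgfb was at 0.07 without replicate 1, and Pdgfrl at −0.32 without replicate 3. Their median of −0.20 became 0.12 among the 4 genes averaging 1 log2 CPM or more.

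Relatives of the transcription factors had median differences near 0. Of 13 other SOX genes, 9 were measured, and 3 were lower on average, against 51.8% of all genes, with a median of 0.03. At an unadjusted p under 0.05 from limma, 2 were lower and 0 higher, against 5.91% and 2.13% of all genes. The endothelial gene Sox7 was highest at 0.20, and the lowest were Sox5, at −0.74, and Sox12, at −0.32. Sox12 was the 1 gene of the 9 lower in all 5 pairs, against 5% of all genes. Sox8, a close relative of Sox10 listed with the OPC genes, was at −0.53 and lower in 4 of 5 pairs, a gene picked after its values were seen. Without replicate 1, Sox7 was at 0.06 and Sox5 at −0.47, and without replicate 4 Sox12 was at −0.20 and Sox7 at 0.11. Without replicate 2, Sox7 was at 0.35 and Sox8 at −0.34. The median of the SOX genes turned to −0.09 without replicate 1 and to −0.01 with library size alone. Among bHLH partners and inhibitors of the OLIG factors, 10 of 14 genes were measured and 2 were lower, against 51.8% of all genes. Their median of 0.02 turned to −0.01 with library size alone. At an unadjusted p under 0.05 from limma, 0 were lower and 1 higher, against 5.91% and 2.13% of all genes. Hes1, a Notch target and repressor, was higher in all 5 pairs at 0.21 (adjusted p = 0.569 from limma), while Hey2 was at −0.25 and Id2 at −0.07.

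Relatives of the proteoglycans were mostly lower. Of 10 genes for lecticans, their link proteins, adhesion partners and receptor phosphatases, 7 were measured, with a median of −0.55. Of the 7 genes 6 were lower, 3 of them in all 5 pairs, against 51.8% and 5% of all genes. Ncan, the gene of the brain proteoglycan neurocan, was at −1.06 and Nfasc, that of the adhesion molecule neurofascin, at −0.92, whereas the link protein gene Hapln1 was at 0.44. Without replicate 1, Nfasc was at −0.59. None of these genes was called by limma, and 3 were lower at an unadjusted p under 0.05, against 5.91% of all genes. Among the genes averaging 1 log2 CPM or more the median of this list was −0.35.

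**Figure D5:**
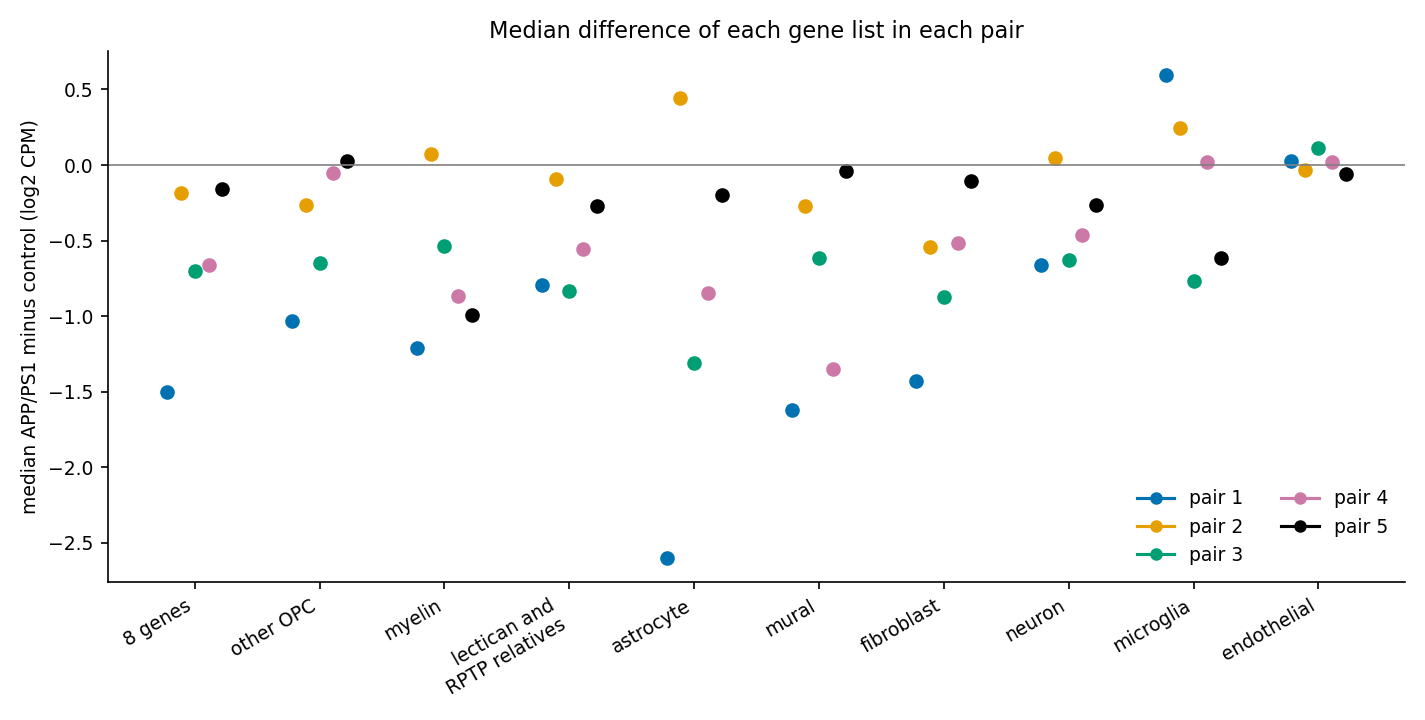
Median difference between the APP/PS1 and the control library (log2 CPM, vertical axis) of the genes of each list, with a point for each of the 5 pairs. Endothelial markers lie between −0.06 and 0.12 in every pair, and the 8 genes, the astrocyte and the mural markers are lowest in pair 1, at −1.50, −2.60 and −1.62.

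Markers of several other cell types were also lower in the APP/PS1 libraries. Of 12 mural cell markers, 11 were measured, with a median of −0.77. All 11 were lower on average and 5 in all 5 pairs, against 51.8% and 5% of all genes. Their summed level was 599 to 1004 CPM in control and 310 to 597 in APP/PS1 libraries, and all 5 defining mural markers were above 0 in every library. Of 12 astrocyte markers, all measured and with none of 6 defining markers at 0, 11 were lower, 1 of them in all 5 pairs, with a median of −0.96 and a summed level of 405 to 543 CPM in control and 336 to 435 in APP/PS1 libraries. The sum of the 6 defining astrocyte markers alone was 168 to 205 CPM in control and 170 to 210 in APP/PS1 libraries. The median of the astrocyte markers was −0.49 without replicate 1 and −0.64 by limma-voom. Of 10 fibroblast markers, 6 were measured and all 6 were lower, with sums of 11 to 12.9 and 6.37 to 8.13 CPM. Of 12 neuron markers, 5 were measured and 4 were lower, 1 of them in all 5 pairs, with a median of −0.39. The sums of the 5 were 110 to 132 CPM in control and 111 to 134 in APP/PS1 libraries. The 2 measured defining neuron markers alone summed to 14.1 to 18.6 CPM in control and 10.8 to 14.3 in APP/PS1 libraries. Of 12 microglia and leukocyte markers, 9 were measured and 5 were lower, with sums of 57.1 to 68.0 and 53.3 to 63.7 CPM. All 20 endothelial markers were measured, 7 were lower, the median was 0.02 and the sums were 38078 to 40833 and 37804 to 40582 CPM. Their part in the differences of the 8 genes was not tested.

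The order of the pairs was not the same for these lists and for Sox10. In pair 2 Sox10 was at −1.14 and in pair 5 at −1.30. In the same pairs the astrocyte markers had median differences of 0.45 and −0.20 and the mural markers of −0.27 and −0.04. Those of the fibroblast markers were −0.54 and −0.11, and those of the myelin genes 0.07 and −1.0. For Ptprz1, Cspg5 and Olig2 the differences in pairs 2 and 5 lay between −0.27 and 0.05. Pdgfra was at −1.36, −0.47, −0.90, 0.13 and 0.11 in pairs 1 to 5. The fibroblast markers were at −1.43, −0.54, −0.87, −0.52 and −0.11, and the mural markers at −1.62, −0.27, −0.62, −1.35 and −0.04. What these likenesses and differences rest on was not tested.

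Genes whose 5 pair differences lay nearest to those of Sox10, Olig1 and Ptn were looked up among all genes by the root mean square distance. Nearest to Sox10 were Tmem132b, Miat, Shank2 and Vxn, at distances of 0.28, 0.31, 0.32 and 0.35 log2 units, compared with 1.15 for the median gene. All 4 were weakly expressed, between −1.04 and −0.31 log2 CPM. That all 4 were lower in all 5 pairs follows from their nearness to Sox10 and is no separate result. Nearest to Olig1 were Glrb, Clip3, Ncam1 and Ptprn, at 0.18, 0.21, 0.26 and 0.28, compared with 1.10 for the median gene. Nearest to Ptn were Morn4, Cyp2j6, Wtip and Usp11, at 0.052, 0.053, 0.055 and 0.059, compared with 0.31. These distances rest on 5 pairs and describe likeness in these libraries only.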

How the data were processed

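BEC RNA of 5 APP/PS1 and 5 control libraries was analysed. By the study's methods, the authors aligned reads to mm10 with STAR, counted them with HTSeq-count, filtered and scaled them with edgeR and corrected for batch with ComBat; the submitters' processing notes name STAR, HTSeq and edgeR, and versions are not given in the sources used here. The authors deposited log2 CPM, which converted back to whole numbers in 100% of 14106 genes with a prior count of 3 (tolerance 0.05). A correction of log CPM by ComBat would not in general leave whole numbers, so which correction made these values is not settled, and the adjusted counts and pair differences carry that doubt. The 10 single-library files equalled their columns.

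Here limma 3.58.1 in R 4.3.3 (lmFit and eBayes, genotype and 5 pairs as terms) was fitted to all genes, with Benjamini-Hochberg adjustment and a threshold of 0.05, after a test on simulated data. The labels give the same replicate numbers in both groups and 4 batches, with replicates 4 and 5 in 1 batch, whereas the study's own plot gives 5. The pair means had been set equal, pairs 4 and 5 included (median difference 0.00306), and therefore the pairs stayed in the model. Per-kb levels used GENCODE M21 exons. Members and lists were chosen with earlier results of these data known. Named genes were the members, the 2 lowest and the highest of each related list, Ptprc, Pecam1 and Cdh5, and the 4 genes nearest to Sox10, Olig1 and Ptn. Lims2, Mbp, Myrf, Gjc3, Cspg4, Sox8 and Xylt1 were added after their values were seen. Alternatives changed the batch term, the variance trend, filters, prior count, scaling, weights and replicates. A listed gene is not reported here by itself.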

Additional observations from a re-analysis of the deposited data

Results flagged for a closer look

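In 132 groups of 5 libraries, 1 library stood apart from the others in 12 groups, its gap to the nearest exceeding 0.71 of the range, where about 7 would by chance. Of the 8 genes, Gpr17 was so placed in both groups of replicate 3, at 4.14 log2 CPM in the control library against 4.35 to 4.37 in the others, and at 4.51 in the APP/PS1 library against 4.29 to 4.31. The control library of replicate 2 was lowest for Mbp at 0.37, Mobp at −1.69, Bcas1 at 0.36, Ermn at −2.18, Shank2 at −0.23 and Vxn at −0.59 log2 CPM. The other control libraries were at 6.10 to 7.31 for Mbp. In the same replicate Pecam1 was highest in control, at 10.89, and lowest in APP/PS1, at 10.70. Pcdh15 was at −4.85, or 0 adjusted counts, in the control library of replicate 5. Nfasc was at −0.24 in the APP/PS1 library of replicate 1, against 0.63 to 0.92 in the others. Since the libraries of a pair mirror each other, such values in both groups of a replicate are not independent.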

How the results depend on the processing

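Without the replicate block, that is with the pairs left out of the model, limma called 648 genes, 455 of them lower, where it called 0 with the pairs, since the pair means had been set equal before. With the 4 batches of the sample labels it called 1 gene, Sox10, which was chosen from this contrast, so that nothing is read from the call. With each replicate left out in turn it called 0 to 5 genes, 5 without replicate 2 (Neurl1a, Pde1b, Car12, Shank2 and Anks1b) and 1 without replicate 5 (Prg2), all named after their values were seen. The other alternatives called 0. The count of genes lower in all pairs, 705, was 963 to 1883 with 4 pairs, the highest without replicate 2, since fewer pairs then had to concur. The median of the PDGF genes was 0.12 with only genes averaging 1 log2 CPM or more, where 4 genes were left. With library size alone, 980 lower and 156 higher genes had an unadjusted p under 0.05, against 833 and 300, and the median of all genes was −0.0409. Without replicate 2 the mean differences of Bcas1, Mobp and Mbp were −3.34, −4.90 and −4.52 log2 units, and those of Tspan2 and Itga6 were 0.38 and 0.27. Tspan2 was at 0.12 without replicate 4. Hey2 was at −0.42 without replicate 1, Id2 at −0.11 without replicate 1 and −0.03 without replicate 5, and Hapln1 at 0.69 without replicate 3 and 0.24 without replicate 4. Of 781 values under alternatives 773 moved by less than the spread between replicates or, for counts, by less than 1.5 times. Leaving out the pairs or using the 4 label batches cannot move a mean difference, a list median or the count of 705. These values are among the 781, so the share overstates how far the results hold. Sox10, Olig1, Olig2, Pdgfra, Cspg5, Ptprz1 and Ptn kept a negative mean in every alternative run, and Gpr17 changed sign. Olig2 had 4 adjusted counts in its lowest library, the fewest of the 8 genes.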
